A study of Homo sapiens with 8 samples.

Results

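The band 3q28 on the long arm of chromosome 3, at chr3:187900001-192300000 on hg19, was examined for H3K9me3 in PC9 cells, with the genes TP63 and CLDN1 as landmarks. The band was chosen by its measured fall in interval coverage in drug-tolerant cells, so its own coverage in these libraries is a description and not a test. It was cut into 880 tiles of 5 kb, of 619122 tiles over all chromosomes. The 4 Mb on each side, with 800 tiles a side, served for comparison. PC9 is an established human lung adenocarcinoma line that depends on mutant EGFR. Erlotinib blocks the EGFR kinase, and trichostatin A (TSA) blocks histone deacetylases. DTP + TSA cells were drug-tolerant persisters, the survivors of 8 days in 1 uM erlotinib, that then received 50 nM TSA for 5 hours. DTP cells had the erlotinib and no TSA, and parental cells had neither drug. All 3 states came from the same line, and the DTP states hold only cells that lived through the drug. Each state had 1 H3K9me3 library, so the differences below were not tested over replicates.

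The files are lists of enriched intervals, stretches of the genome that the authors called as carrying more H3K9me3 signal than background. The DTP + TSA list held 53000 intervals, the DTP list 47866 and the parental list 23842. Of these, 113, 105 and 97 lay in 3q28. Read depth is unknown from the lists, and a deeper library or another threshold changes the number and length of intervals. Ranges in brackets after shares are exact Clopper-Pearson 95% intervals, which cover counting error only. Copy number was not measured, since the input libraries were not analysed here.

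H3K9me3, trimethylation of lysine 9 of histone H3, is laid down by enzymes such as SUV39H1 and SETDB1 and is read by HP1 proteins. It marks constitutive heterochromatin, silenced repeats and clusters of zinc finger genes, and in differentiated cells it also forms broad domains over genes of other lineages. TP63 encodes p63, a p53 family transcription factor of basal and squamous epithelium that pathologists use to tell squamous from glandular lung cancer. CLDN1 encodes claudin-1, a structural protein of tight junctions. A RefSeq gene table on GRCh38, used only for names and order, lists LPP and TPRG1 before TP63, and P3H2, CLDN16, CLDN1, TMEM207, IL1RAP, GMNC, OSTN and UTS2B after it. LPP encodes an adhesion and cytoskeleton protein, P3H2 a collagen prolyl hydroxylase, CLDN16 a claudin of kidney tubules, IL1RAP a co-receptor of interleukin 1 and GMNC a regulator of multiciliated cells. No hg19 positions were used for these other genes, so they carry no values here.

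The promoters of the 2 landmark genes are shown because the start of TP63 lay inside parental H3K9me3 and the start of CLDN1 did not. Each is 300 bases around the gene start that RefSeq lists on GRCh38.p14, most of it upstream, written 5′ to 3′ on the strand of the gene with CpG dinucleotides in capitals. TP63 lies on the plus strand and CLDN1 on the minus strand of chromosome 3.
TP63: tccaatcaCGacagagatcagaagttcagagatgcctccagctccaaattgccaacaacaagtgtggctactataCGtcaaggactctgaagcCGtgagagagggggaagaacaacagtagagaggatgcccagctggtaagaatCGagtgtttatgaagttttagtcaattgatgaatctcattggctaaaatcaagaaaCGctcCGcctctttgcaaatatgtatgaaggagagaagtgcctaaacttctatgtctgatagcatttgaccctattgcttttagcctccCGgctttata
CLDN1: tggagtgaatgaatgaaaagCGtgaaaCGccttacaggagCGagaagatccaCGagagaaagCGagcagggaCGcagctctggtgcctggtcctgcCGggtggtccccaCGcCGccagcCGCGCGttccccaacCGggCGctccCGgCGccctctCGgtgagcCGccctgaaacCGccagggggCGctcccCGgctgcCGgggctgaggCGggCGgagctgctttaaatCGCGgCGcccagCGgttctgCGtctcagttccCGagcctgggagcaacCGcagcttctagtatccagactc
The TP63 sequence held 7 CpG dinucleotides at 43.7% GC, and 36.8% of 35116 promoters of the same length held fewer. The CLDN1 sequence held 31 at 67% GC, and 79.3% of promoters held fewer. The median promoter had 14. On both strands, TATAAA matched 1 time in the TP63 sequence and 0 times in the CLDN1 sequence, and 11.5% of all promoters held it. GGGCGG matched 0 times in TP63 and 2 times in CLDN1, against 45.0% of all promoters with a match. CACCTG, a sequence bound by E-box factors, was in neither and in 20.6% of all promoters. Each motif was counted alone, with overlaps between motifs allowed. A match is a description of the letters only.

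H3K9me3 coverage of 3q28 was low in both drug-treated libraries and high in parental cells, and the difference was concentrated around TP63. Intervals covered 6.33% of the band in DTP + TSA, 7.28% in DTP and 22.3% in parental cells, which is 278.4, 320.4 and 980 kb. The band therefore stood at 0.33 times the parental length in DTP and at 0.28 times in DTP + TSA. In the 4 Mb before the band coverage was 6.36% in DTP + TSA, 5.54% in DTP and 4.98% in parental cells, and in the 4 Mb after it 10.6%, 7.94% and 6.94%. Both flanks together had 1.13 times the parental length in DTP. With flanks of 2 Mb this ratio was 0.90. With 4 Mb it was 0.90 in the upper part of each list by mean value. It was 0.65 with the DTP list cut by mean value to the number of the parental list. Whether the surroundings of the band were above or below parental cells therefore depended on their reach and on the intervals kept. The genome outside 3q28 had 1.32 times the parental length in DTP, at 5.79% covered in DTP + TSA, 5.32% in DTP and 4.02% in parental cells. The DTP list was also cut to its strongest intervals, as many as the parental list holds, while the parental list stayed whole. The ratio of DTP to parental cells was then 0.24 in the band and 0.71 over all chromosomes. The direction outside the band turned with this setting, which shortens only the DTP side and so lowers the ratio. At the borders of the band no library had a large step. The first 100 kb inside was at 0% in all 3 libraries and the last 100 kb before it at 1.2% in DTP + TSA, 0.8% in DTP and 0% in parental cells. The last 100 kb inside was at 1.8%, 4% and 0%, and the first 100 kb outside at 3.6%, 5.4% and 2.6%.

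**Figure D1:**
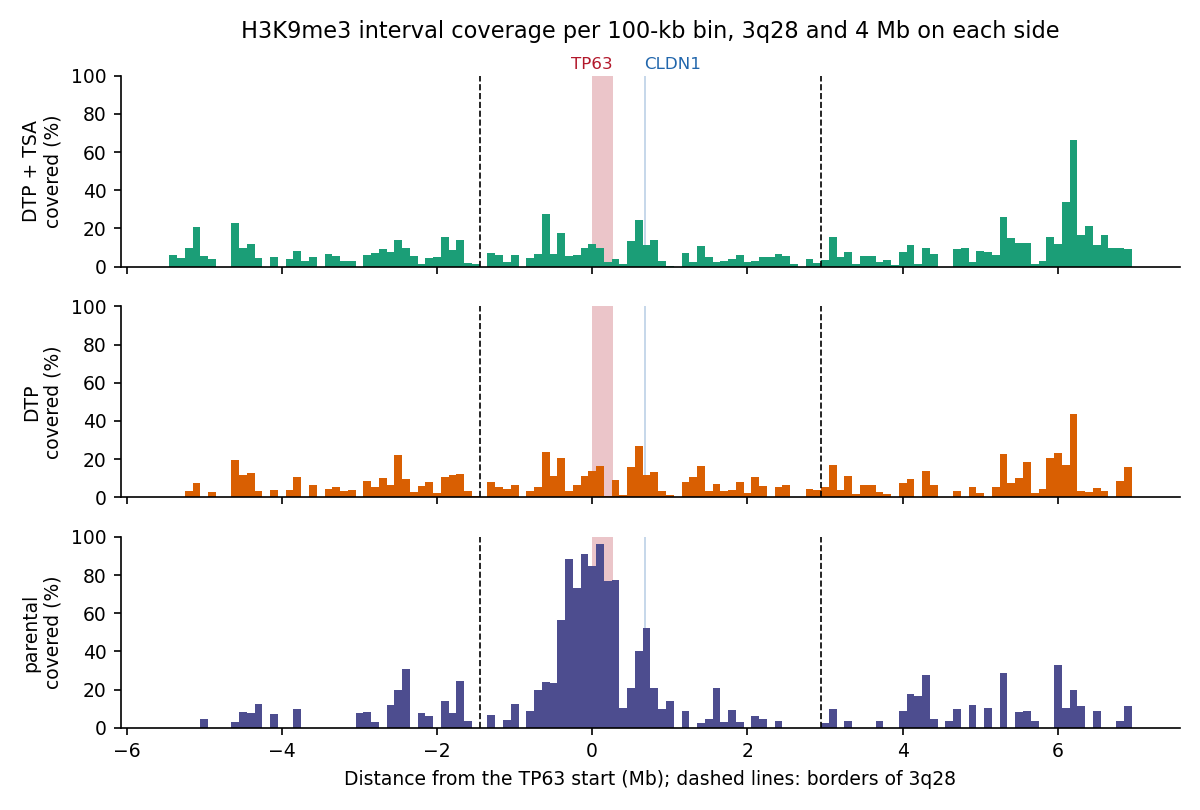
Share of each 100-kb bin inside H3K9me3 intervals (%, vertical axis) by distance from the TP63 start (Mb, horizontal axis) in DTP + TSA, DTP and parental cells, 1 library each, with 3q28 between the dashed lines and TP63 and CLDN1 shaded. In the band the bins reach at most 27.4% in DTP + TSA and 26.8% in DTP, against 96.2% in parental cells, where the high bins surround TP63.

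Most of the parental mark lay in a single dense domain that takes in the whole of TP63. Runs of tiles at least 50% covered in parental cells were searched for, after the data had been seen, and the longest run in the band was chr3:189010001-189685000 on hg19, 675 kb long. It begins 339 kb before TP63 and ends 70 kb after it, so TP63, at chr3:189349000-189615000, makes up 39.4% of it. Within this domain coverage was 7.20% in DTP + TSA, 8.65% in DTP and 86.9% in parental cells, a ratio of DTP to parental cells of 0.10. The domain was selected on its high parental coverage, so this gap is a description. In the rest of 3q28 coverage was 6.17% in DTP + TSA, 7.03% in DTP and 10.6% in parental cells, a ratio of DTP to parental cells of 0.67. The domain thus lay close to its surroundings in both drug-treated libraries and far above them in parental cells.

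The loss was spread over all of the domain and was not confined to the gene. In the 339 kb before TP63 coverage was 8.61% in DTP + TSA, 8.26% in DTP and 85.5% in parental cells. Over TP63 itself it was 5.86% in DTP + TSA, 8.12% in DTP and 87.7% in parental cells. In the 70 kb after TP63 it was 5.43% in DTP + TSA, 12.6% in DTP and 90.9% in parental cells. In each of the 3 segments both drug-treated libraries lay far below parental cells. The 5 kb on each side of the TP63 start were covered at 0% in DTP + TSA, 0% in DTP and 92% in parental cells. This is the start of the whole TP63 span, and no start inside the gene was examined.

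The tile calls recut the same intervals on a finer grid. A tile was called lost or gained where its covered share differed by at least 50 percentage points between 2 libraries. In DTP against parental cells, 160 of the 880 tiles were lost and 12 were gained, where over all tiles of the genome 1.57% were lost and 2.21% gained. Only a tile with parental coverage can be lost, and 204 tiles of the band were at least 50% covered in parental cells, against 40 in DTP + TSA and 45 in DTP. Of these 204, 78.4% (72.1 to 83.9) were lost, beside 41.1% of such tiles over the genome, a contrast that the choice of the band fixed. In the dense domain 115 of 124 such tiles were lost, or 92.7% (86.7 to 96.6). In the rest of the band it was 45 of 80, or 56.3% (44.7 to 67.3). The flank before the band had 19 of 34 lost, or 55.9% (37.9 to 72.8), and the flank after it 25 of 56, or 44.6% (31.3 to 58.5). The choice of the band and of the domain fixed this order, and neighbouring tiles of 1 library are not independent, so these ranges are no test of a difference. The 160 lost tiles were 1.64% of the 9738 lost over the genome.

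Joining lost tiles with at most 2 uncalled tiles between them gave 13 lost blocks in DTP against parental cells, with 915 kb in all. The block over TP63 spanned the same 675 kb as the dense domain and held 71.9% of the lost tiles. Both runs use the same parental tiles and allow at most 2 other tiles inside, so their equal span is no separate result. The other 12 measured 10 to 55 kb. With no uncalled tile allowed, the blocks numbered 28 and the longest was 125 kb, so the 675 kb is a run of neighbouring losses with kept tiles between them. Toward the centromere, blocks lay at chr3:188600001-188620000, chr3:188655001-188670000, chr3:188875001-188920000, chr3:188950001-188960000 and chr3:188980001-188995000. These trail the domain on its centromeric side at distances of 354 to 729 kb from TP63. Toward the telomere, 10-kb blocks lay at chr3:189720001-189730000, chr3:189870001-189880000 and chr3:189920001-189930000, between TP63 and CLDN1. Beyond CLDN1, blocks of 30 and 10 kb lay at chr3:190280001-190310000 and chr3:190950001-190960000.

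CLDN1, at chr3:190023000-190040000, lay 338 kb outside the dense domain and had its own small loss. The gene was covered at 5.88% in DTP + TSA, 0% in DTP and 27.1% in parental cells. Its parental coverage came from 1 interval, chr3:190021801-190027600 (5.8 kb, percentile 68.6 of the authors' mean values in the parental list), over the end of the gene away from its start. This interval overlapped nothing in DTP or DTP + TSA and made the lost block chr3:190020001-190030000. The longest lost block beside the domain, chr3:190050001-190105000, began 10 kb past the start of CLDN1 and was covered at 5.09% in DTP + TSA, 7.27% in DTP and 74.5% in parental cells. At the start of CLDN1 the order differed. The 5 kb on each side were covered at 12% in DTP + TSA, 0% in DTP and 0% in parental cells, through 1 interval of 1.2 kb at chr3:190039001-190040200, at percentile 60.4 of the DTP + TSA list. Between the dense domain and CLDN1 coverage was 13.8% in DTP + TSA, 15.1% in DTP and 24.7% in parental cells.

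**Figure D2:**
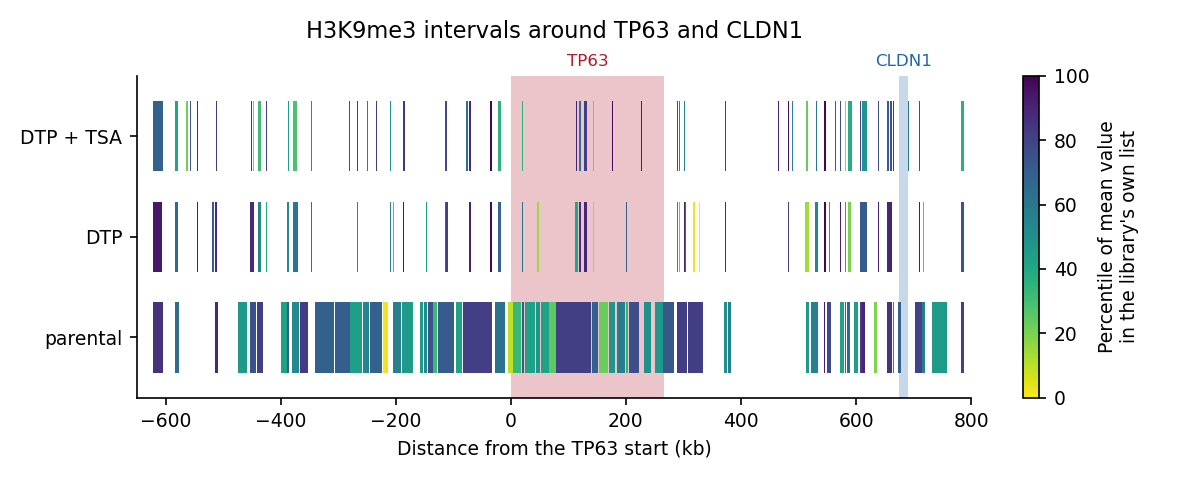
H3K9me3 intervals by distance from the TP63 start (kb, horizontal axis) in DTP + TSA, DTP and parental cells, 1 library a row, coloured by the percentile of each interval's mean value within its own list, with TP63 and CLDN1 shaded. The dense domain holds 25 short intervals in DTP + TSA, 25 in DTP and 36 mostly long ones in parental cells. Between the domain and CLDN1 lie 19 intervals in DTP + TSA, 15 in DTP and 16 in parental cells.

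The domain held scattered short intervals in both drug-treated libraries and a nearly closed run of long ones in parental cells. They numbered 25 in DTP + TSA, 25 in DTP and 36 in parental cells. Their median length was 1800 bp in DTP + TSA, 2000 bp in DTP and 13800 bp in parental cells, and the longest measured 5.2, 6.4 and 60.6 kb. Intervals of at least 10 kb numbered 0 in DTP + TSA, 0 in DTP and 24 in parental cells. The parental intervals ran from chr3:189008001 to 189683400 with 35 gaps of median 1.2 kb and at most 11.6 kb, 24 of them under 2 kb. The smallest gap anywhere in each list was 800 bp. In the drug-treated libraries the median gap was 15.8 kb in DTP + TSA and 14 kb in DTP. Joining intervals within 5 kb closes most of the parental gaps. The band then stood at 7.34% in DTP + TSA, 8.44% in DTP and 24.1% in parental cells. The median gaps of 15.8 and 14 kb in the drug-treated libraries are wider than this setting joins. Whether splitting of their intervals over such gaps made part of the difference was not tested.

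In the rest of the band the shift in length was smaller. Median length there was 2200 bp in DTP + TSA, 2400 bp in DTP and 5100 bp in parental cells. In the flanks it was 2600 bp in DTP + TSA, 3200 bp in DTP and 5800 bp in parental cells. The number of intervals moved the other way in the flanks, with 193 in DTP + TSA, 135 in DTP and 73 in parental cells, while the dense domain had fewer in each drug-treated library than in parental cells.

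**Figure D3:**
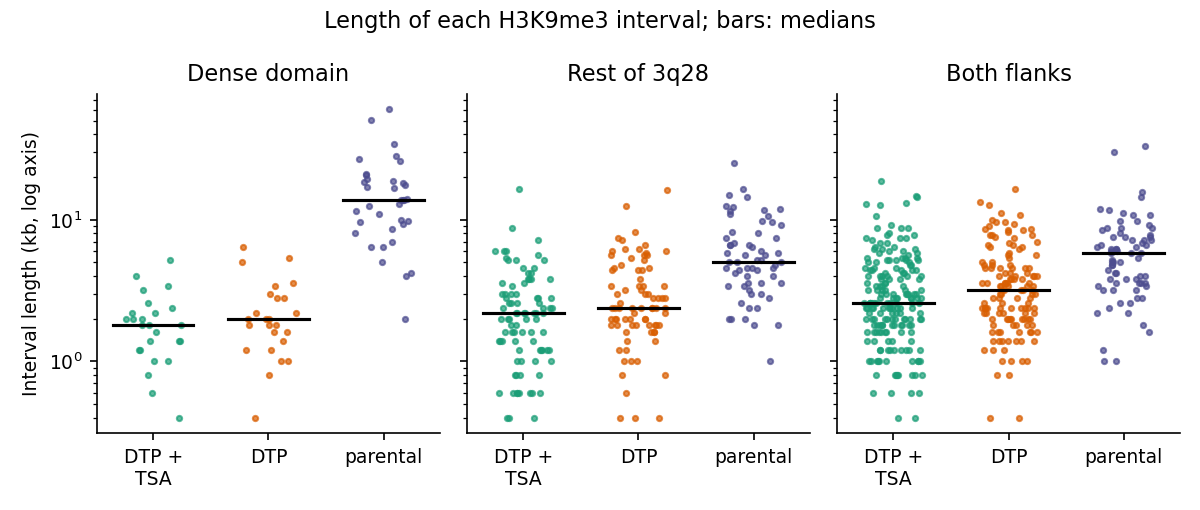
Length of each H3K9me3 interval (kb, log axis) in DTP + TSA, DTP and parental cells, 1 library each, for the dense domain around TP63, the rest of 3q28 and both flanks of 4 Mb; each point is 1 interval and bars are medians. In the dense domain the medians are 1800, 2000 and 13800 bp, and in the flanks 2600, 3200 and 5800 bp.

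Persister intervals in the domain mostly overlapped parental ones and covered small parts of them. Parental intervals covered 86.9% of the domain by its selection, so most short intervals placed there would overlap one. Of the 25 DTP intervals there, 24 overlapped a parental interval, and of the 25 DTP + TSA intervals 23 did. In the other direction, 16 of the 36 parental intervals of the domain overlapped DTP at all, 1 of them was covered over at least 50% of its length, and of the 24 that reached 10 kb none was. Over the whole parental list, 64.1% of intervals overlapped DTP at all, and 54.3% of 1949 intervals of at least 10 kb were covered over at least 50%. The band was chosen by its fall in coverage and holds the domain, so this contrast with the whole list is no test. Across the band, 752.4 kb was covered in parental cells only, 76.8% of the parental length, and 155.2 kb in all 3 libraries. A further 21.2 kb was shared by DTP + TSA and parental cells only, and 51.2 kb by DTP and parental cells only. DTP + TSA and DTP together, without parental cells, covered 67.2 kb. In the dense domain 519.2 kb, or 88.5% of the parental length, was parental only.

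Borders were compared by the distance to the nearest border of any interval in the other list. The median distance from a parental border to the nearest DTP border was 8100 bp in the domain, 1900 bp in the rest of the band and 3100 bp in the flanks. From a DTP border to the nearest DTP + TSA border it was 300 bp in the domain. Of the 36 parental intervals of the domain, 20 had no overlap in DTP. The distance of 8100 bp therefore depends on how sparse the DTP intervals were and shows no shift of borders. Summits are the positions of highest signal. For 16 of the 25 DTP intervals of the domain the summit lay within 500 bp of a DTP + TSA summit. For 6 of the 25 it lay within 500 bp of a parental summit. Each list gives a single summit per interval, and median length in the domain was 2000 bp in DTP and 13800 bp in parental cells. A short interval inside a long one is seldom near its summit, so these counts are no like comparison.

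Single intervals show what was kept and what was not. The longest parental interval of the band, chr3:189428001-189488600 (60.6 kb), lies inside TP63, and 14.5% of it was covered in DTP + TSA and 24.1% in DTP. The pieces called within it in DTP + TSA, chr3:189461401-189463600, chr3:189467601-189470200 and chr3:189477001-189481000, each lay inside a DTP interval. The second, chr3:189265201-189316200 (51 kb), lies before TP63 and was covered at 16.5% in DTP + TSA and 12.5% in DTP. The parental intervals chr3:189222601-189250600 (28 kb) and chr3:189656401-189683400 (27 kb) were covered at 12.9% and 0% in DTP + TSA, and at 16.4% and 13.3% in DTP.

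Of the 5 longest parental intervals with no overlap in DTP, 4 lay at least partly in the dense domain. The first, chr3:189008001-189042000 (34 kb), forms the centromeric edge of the domain. The next, chr3:190081401-190106400 (25 kb), lies past CLDN1. The others were chr3:189104401-189125200 (20.8 kb) before TP63, chr3:189614001-189633400 (19.4 kb) across the end of TP63 and chr3:189553601-189572400 (18.8 kb) inside it. Of these 5, only chr3:189104401-189125200 had any coverage in DTP + TSA, at 8.65%.

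Within TP63, 8 intervals were called in DTP + TSA, 7 in DTP and 17 in parental cells. The parental intervals were 4 to 60.6 kb long with a median of 13 kb, and 12 of the 17 had no overlap in DTP. The same count, 12, had none in DTP + TSA. Over the whole parental list 64.1% of intervals overlapped DTP and 62.4% overlapped DTP + TSA, a contrast that the choice of the band fixed. All 7 DTP intervals lay inside parental ones, which covered 87.7% of the gene. Of these 7, 5 overlapped DTP + TSA, beside 71.6% of the whole DTP list. The parental interval over the start of TP63, chr3:189343601-189352200 (8.6 kb), stood at percentile 9.96 of the mean values in its list, among the weakest of the gene. The one of 60.6 kb stood at percentile 81.5.

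Few tiles of the band differed between DTP + TSA and DTP at a call of 50 points, a count that depended on the setting. In DTP + TSA against DTP, 6 tiles of the band were lost and 3 gained, where over the genome 0.681% of tiles were lost and 1.24% gained. The 6 were 13.3% (5.05 to 26.8) of the 45 tiles at least 50% covered in DTP, beside 15.8% over the genome, so the share lay near the background. The lost tiles numbered 14 in the upper part of each list by mean value, 16 with lists of equal number and 22 at a call of 25 points. Of the DTP length of the band 30.6% was absent in DTP + TSA, and 50.5% with equal numbers. The covered length of the band was 0.87 times that of DTP, against 1.26 times in both flanks of 4 Mb and 0.999 times in flanks of 2 Mb. Of 105 DTP intervals in the band, 80 or 76.2% (66.9 to 84.0) overlapped DTP + TSA, and of 113 DTP + TSA intervals 81 or 71.7% (62.4 to 79.8) overlapped DTP. Over the whole lists these shares were 71.6% and 66.3%, so the band lay near them. The only lost block was chr3:190610001-190620000, where a DTP interval of 7.4 kb at chr3:190612401-190619800, absent from parental cells, was also absent from DTP + TSA. That interval stood at percentile 12.4 of the DTP list.

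Of the 8 DTP + TSA intervals in TP63, 5 overlapped DTP and 3 did not, beside 66.3% of the whole DTP + TSA list with an overlap. The interval chr3:189525601-189526600 (1 kb) stood at percentile 98.2 of the DTP + TSA list and lay inside a parental interval. The interval chr3:189575401-189576600 (1.2 kb) stood at percentile 91.2 and overlapped neither DTP nor parental cells. The interval chr3:189372801-189374200 (1.4 kb) stood at percentile 27.2 and lay inside a parental interval. Ranks come from lists of different lengths, so they place an interval within its own library and show no change between libraries.

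DTP + TSA set directly against parental cells gave nearly the counts of DTP against parental cells. The band had 161 lost and 12 gained tiles, where the genome had 1.63% lost and 2.64% gained. Of the 204 tiles at least 50% covered in parental cells 78.9% (72.7 to 84.3) were lost, beside 42.6% over the genome. The band was chosen by its fall from the same parental library, so this contrast is no test. In the dense domain 117 of 124 were lost. There were 11 lost blocks with 885 kb, and the longest was again the 675 kb over TP63. The 2 comparisons share the parental library, so their likeness is not independent.

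Of the band's intervals, 49 of 113 in DTP + TSA and 38 of 105 in DTP had no overlap in parental cells, while few tiles of the band were gained. The shares with an overlap were 56.6% and 63.8%, beside 30.5% and 34.2% over the whole lists. Parental intervals covered more of the band than of the genome outside it, so these shares are no test. The 12 gained tiles in DTP against parental cells became 0 with tiles of 20 kb and 32 at a call of 25 points. The gained blocks in DTP against parental cells were chr3:190610001-190620000 and chr3:191865001-191875000, and the second was also gained in DTP + TSA. The longest DTP intervals without parental overlap measured 7.4, 6.6 and 5.6 kb, at chr3:190612401-190619800, chr3:191866601-191873200 and chr3:188140601-188146200. In DTP + TSA they measured 5.6, 5.2 and 4.6 kb, at chr3:191867201-191872800, chr3:188140801-188146000 and chr3:190154601-190159200. No tile of the dense domain was gained in either library against parental cells.

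In each list the 3 intervals of the band with the highest mean values lay outside the dense domain and overlapped both other lists. Further down this did not hold, as for chr3:189831201-189832600 in DTP + TSA, at percentile 96.2, which was called in DTP and not in parental cells. The one with the highest mean value in the band in each list lay at chr3:190188201-190192800 in DTP + TSA, chr3:190188601-190193200 in DTP and chr3:190188401-190193400 in parental cells. It stood at percentile 99.4 within DTP + TSA, 99.6 within DTP and 94.3 within parental cells. The second strongest lay in each list at chr3:189893801, between TP63 and CLDN1. The long interval chr3:188727601-188744200 of DTP + TSA (16.6 kb) matched one of 16.2 kb in DTP and one of 16.4 kb in parental cells. Within the dense domain the strongest shared site was chr3:189313401-189316600 in DTP + TSA, at percentile 98.3, which lay inside the DTP interval chr3:189313201-189316800, at percentile 97.7. Over all intervals of the dense domain the median percentile in the own list was 76.0 in DTP + TSA, 55.2 in DTP and 51.0 in parental cells. The parental domain was thus long and dense with mean values in the middle of its list.

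The edges of the domain were examined for steps of the kind a change in copy number could leave. In parental cells the telomeric edge was sharp, with 10.4% covered in the 100 kb after position 189700000 and 77.6% in the 100 kb before it, the largest step of parental cells in the band and its flanks. The centromeric edge was graded, with 23.6%, 56.4% and 88.6% in successive 100-kb bins, of which the first starts at position 188800001. DTP + TSA and DTP had no step of such size in the band, and their largest lay at position 195600000, outside it. Just outside the domain, the 100 kb before it were covered at 15.8% in DTP + TSA, 19.2% in DTP and 50.6% in parental cells, and the 100 kb after it at 1.4%, 1% and 10.4%. Inside, the first 100 kb were at 4.8%, 2.2% and 94.4% and the last 100 kb at 3.8%, 8.8% and 85.4%. Intervals shared by all 3 libraries lay on both sides of the domain, among them the 16.6-kb one before it and the strongest one after it. Inside the domain 33.4 kb was covered in all 3 libraries, 5.69% of its parental length. The part of copy number in the result was not tested.

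Other long parental domains were located by the same rule to see where the TP63 domain, itself chosen for its loss, stood among them. Over all chromosomes 67 runs of tiles at least 50% covered in parental cells reached 100 kb. The TP63 domain, at 675 kb, had 4 longer ones, of which 1 lay outside chromosome 19, the chromosome of the zinc finger gene clusters. Its ratio of DTP to parental length was 0.10, and 1 of the other 66 had a lower one. The other domains outside chromosome 19, 46 in number, had a median ratio of 0.63, and 21 of them were below 0.5. They were a mixed set, with ratios from 0.08 to 1.26. All domains were picked for high parental coverage, so their ratios are descriptions. The 20 domains on chromosome 19 had a median of 0.87 and a lowest ratio of 0.597. In DTP + TSA the median ratio to parental cells was 0.66 outside chromosome 19 and 0.85 on it, and the TP63 domain stood at 0.08. Among domains of at least 100 kb a large loss was therefore not particular to the TP63 domain, which combined a length near the top of the range with a ratio near the bottom. At a minimum of 200 kb, 4 of 24 domains were below 0.5, the TP63 domain among them, and none had a lower ratio than it.

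**Figure D4:**
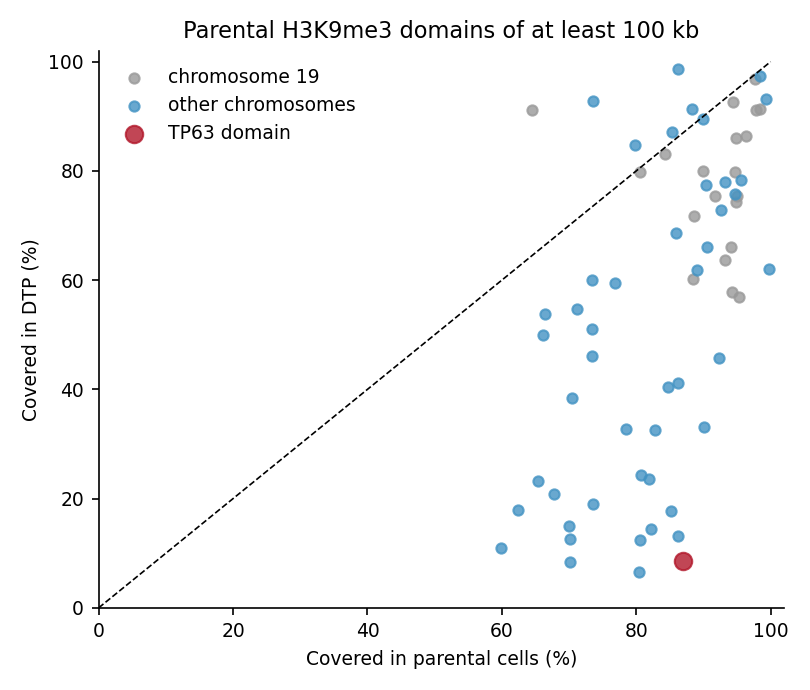
Share covered in DTP (%, vertical axis) against the share covered in parental cells (%, horizontal axis) for the 67 parental H3K9me3 domains of at least 100 kb, 1 library each, with chromosome 19 in grey and the dashed line at equal shares. The TP63 domain lies at 8.65% in DTP and 86.9% in parental cells, and the chromosome 19 domains stay nearer to the line.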

How the data were processed

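H3K9me3 ChIP was done in 3 states of PC9 cells, 1 library each, and the other samples (2 H3K4me3 and 3 input libraries) were not analysed here. The deposited lists give each interval's chromosome, start, end, summit and mean signal, per the file headers. The signal values are the authors' own and were used only to describe and rank intervals within a list. BWA, SICER, hg19 and dm3 are named, without roles or versions, in the submitters' processing notes. How intervals were called, against which input, and how libraries were scaled to each other is not given in the sources used here. All interval borders lay on a grid of 200 bp.

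Coverage was computed in tiles of 5 kb. A call needed a difference of 50 percentage points, and a block at least 2 called tiles with at most 2 uncalled tiles between them. TP63 and CLDN1 spans are approximate, as given with the choice of the band. The members and lists were chosen with earlier results of these data known, and the dense domain, the long domains and the named strongest intervals were defined after seeing them. Other intervals were named by length or by overlap with TP63 or CLDN1. No hg19 gene annotation was used. Chromosome lengths came from GenomeInfoDb 1.38.1 and band borders from circlize 0.4.16 in R 4.3.3, and the rest from scipy 1.17.1, pandas 2.3.3, numpy 2.4.6 and matplotlib 3.10.9 in Python 3.11.15. Scripts were tested on simulated intervals, where 7 of 7 checks returned the known answer. Alternatives changed the intervals kept, the joining of intervals, tile size, call size, block gaps, overlap and flank size.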

Additional observations from a re-analysis of the deposited data

How the results depend on the processing

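Over 23 results, 85 alternative values were computed, of which 35 stayed close to the reported value, 47 moved and 3 turned round. For counts, close was a wide range. In DTP against parental cells, 188 lost tiles at a call of 25 points and 107 at 80 points counted as close to 160. A longest lost block of 855 kb, with 10 uncalled tiles allowed inside, counted as close to 675 kb. No paired analysis was possible because each state has 1 library. The flank ratios turned round with flanks of 2 Mb, to 0.90 in DTP against parental cells, 0.999 in DTP + TSA against DTP and 0.90 in DTP + TSA against parental cells, from 1.13, 1.26 and 1.42. With flanks of 4 Mb the ratio of DTP to parental cells also turned, to 0.90 in the upper part by mean value and 0.65 with equal numbers, and that of DTP + TSA to parental cells to 0.75 with equal numbers. The equal-number setting cut the DTP and DTP + TSA lists to the number of the parental list, which stayed whole. It therefore lowers their ratios to parental cells. Over all chromosomes equal numbers gave 0.71 for DTP and 0.68 for DTP + TSA against parental cells, and 0.96 for DTP + TSA against DTP, in place of 1.32, 1.43 and 1.09. The parental length of the band absent in DTP was 78.9%, 83.8% with equal numbers of the strongest intervals, 81.5% with intervals of at least 2 kb and 61.7% without the dense domain. The parental length absent in DTP + TSA was 82%, and 85.7% in the upper part by mean value, 88.7% with equal numbers, 80.4% with intervals joined within 5 kb, 84.4% with intervals of at least 2 kb and 66.6% without the dense domain. The DTP length absent in DTP + TSA was 30.6%, 45.8% in the upper part by mean value and 50.5% with equal numbers.

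In the upper part by mean value, lost tiles were 96 in DTP and 107 in DTP + TSA against parental cells. Gained tiles in DTP against parental cells were 19 with intervals joined, 22.4 in units of 5 kb with tiles of 1 kb, 0 with tiles of 20 kb, 32 at a call of 25 points and 3 at 80 points. In DTP + TSA against parental cells they were 1 with equal numbers, 20.8 with tiles of 1 kb, 0 with tiles of 20 kb, 27 at 25 points and 2 at 80 points. In DTP + TSA against DTP, lost and gained tiles were 14 and 1 in the upper part, 16 and 1 with equal numbers, 13 and 8 joined, 16.6 and 10 with tiles of 1 kb, 0 and 0 with tiles of 20 kb, 22 and 11 at 25 points, and 2 and 0 at 80 points. With no uncalled tile inside, lost blocks were 28 in DTP and 26 in DTP + TSA against parental cells, the longest 125 kb in each, and with 10 allowed 5 and 5. Parental intervals covered over at least 50% numbered 30 in DTP and 27 in DTP + TSA, against 58 and 53 overlapped by 1 bp. Long parental domains numbered 24 at a minimum of 200 kb, with 4 below a ratio of 0.5, and with tiles at least 80% covered 14 were below it. Both counts include the TP63 domain. With the 80% tiles the TP63 domain shortened to 480 kb at a ratio of 0.12, and 2 domains had lower ratios. At the minimum of 200 kb no domain had a lower ratio than the TP63 domain. The minimum of 200 kb, the 80% tiles and the removal of the dense domain were chosen after seeing the data. Depth is unknown, so a deeper library could not be told apart from more marked chromatin.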

Other observations

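The telomeric flank of the band held a segment that differed from 3q28. The 100-kb bin before position 195600000 was covered at 66.2% in DTP + TSA, 43.6% in DTP and 20% in parental cells, the highest 100-kb value of DTP + TSA and of DTP in the band and its flanks. In the 4 Mb after the band as a whole, 25 of 800 tiles were lost in DTP against parental cells and 33 were gained, or 3.1% and 4.1%. In 3q28, 160 of 880 tiles were lost and 12 gained, or 18.2% and 1.36%. Over the genome 1.57% of tiles were lost and 2.21% gained. The band was chosen by its fall, so its contrast with the flank is no test.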
